A study of Mus musculus with 2 samples.

Results

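The genes described here are the metalloproteases of the ADAMTS, ADAM and MMP families, the ADAMTS-like proteins and the tissue inhibitors of metalloproteases (TIMPs). They were taken by symbol from the authors' table of protein-coding genes compared between the distal and the proximal side of mouse limb-mesenchymal organoids: every symbol made of Adamts, Adamtsl, Adam or Mmp and a number, with a letter where there is one, and every Timp gene. This gave 57 of the 13916 genes in the table, namely 18 Adamts, 4 Adamtsl, 18 Adam, 13 Mmp and 4 Timp genes. The rule reads symbols only. The GENCODE annotation holds 83 protein-coding genes whose symbols match, and the other 26 are not analysed here.

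The organoids were grown from embryonic limb mesenchymal cells of Slc:ICR mice in medium that contained Fgf8b and Wnt3a over 48 h. Sections were cut from 5 organoids, which came from 4 cultures and were snap-frozen on day 2. Distal and proximal regions shared genotype, medium and time, and the labels give no age for the embryos. In photo-isolation chemistry, cDNA is made inside the section with primers whose cage is opened by ultraviolet light, so that only the lit area enters the library. There were 5 barcoded distal regions in 1 library and 5 barcoded proximal regions in the other, so side and library cannot be told apart, and nothing ties a region to an organoid or shows that the regions of a side came from separate animals. P-values therefore measure the spread between regions, which may in part be technical.

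ADAMTS proteases are secreted enzymes that cut matrix proteins, above all the large proteoglycans versican and aggrecan, the amino-terminal propeptides of fibrillar collagens, and partners of fibrillin. ADAMs are mostly membrane-bound and release the outer parts of other membrane proteins, such as Notch receptors and growth factor precursors. MMPs cut collagens and other matrix proteins and are made as inactive precursors, and TIMPs block MMPs and some ADAM and ADAMTS enzymes. In the limb bud, versican-rich matrix surrounds the mesenchyme, and its clearance by ADAMTS enzymes is known from the regression of the webs between digits.

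The authors' table gives 1 mean per gene over all regions, in normalized counts (counts divided by the size factor, the relative depth of a region), with a log2 fold change in which a positive value means more in distal. Whole counts per region were recovered from these columns for the 51 genes of the set with a mean under 15. The counts of the listed genes in a region were estimated as its size factor times the summed means, because they could not be added up directly. These estimates ran from 46991 to 118978 for the distal regions and from 214774 to 345649 for the proximal regions. By size factor, the distal side had 23.3% of the summed depth. At that depth 3 counts over a side equal a mean of 1.02 normalized counts in distal and of 0.311 in proximal. Counts are not divided by gene length here, so means of different genes are not compared as levels. In sections of mixed cells, fewer cells that express a gene and less RNA per cell cannot be told apart.

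Few of these genes reached a depth at which a difference could be seen. The mean was at least 1 normalized count for 30 genes (52.6%, beside 69.0% of all genes). It was at least 10 for 8 of the 57, beside 3757 of all 13916 genes. Both sides held 3 counts or fewer for 17 genes, and 8 of those had a single count in all 10 regions. A further 14 had 3 counts or fewer in distal only, where depth was lower, and 26 had more on both sides. No distal count was found for 17 genes, and 11 of these nevertheless carry a positive log2 fold change in the authors' deposited table, a sign that the counts do not show.

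Adamts20 was higher in distal regions and Adamts1 was higher in proximal regions, each with an adjusted p under 0.05. These 2 genes are 3.51% of the 57, beside 0.977% of all 13916 genes called by the same rule. In distal, 1 of 57 was called beside 0.395% of all genes, and in proximal 1 of 57 beside 0.582%. An unadjusted p under 0.05 was found for 8 of 57 (14.0%), beside 6.07% of all genes. Of these, Adamts20 and Adamts9 had more in distal (2.56% of all genes were in that class) and Adamts1, Adamts5, Adamts15, Timp2, Adam23 and Adamtsl3 had more in proximal (3.51% of all genes).

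Above a mean of 1 normalized count, the log2 fold change was negative for 13 of the 15 ADAMTS and ADAMTS-like genes (86.7%), for 5 of 8 ADAM genes, for 1 of 5 MMP genes and for both TIMP genes. For all genes of the table above that mean it was negative for 5089 of 9604 (53.0%). The median log2 fold change above that mean was -0.85 for the 13 ADAMTS genes, -0.12 for the ADAM genes and 0.11 for the MMP genes, beside -0.03 for all genes. All genes of the set above that mean had counts on both sides. Over all 57 genes the median was -0.06, and -0.08 with genes at 3 counts or fewer on a side at their bound, which leaves out the 17 at that limit on both sides. These medians are descriptions, and most of the genes behind them did not pass the test.

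**Figure D1:**
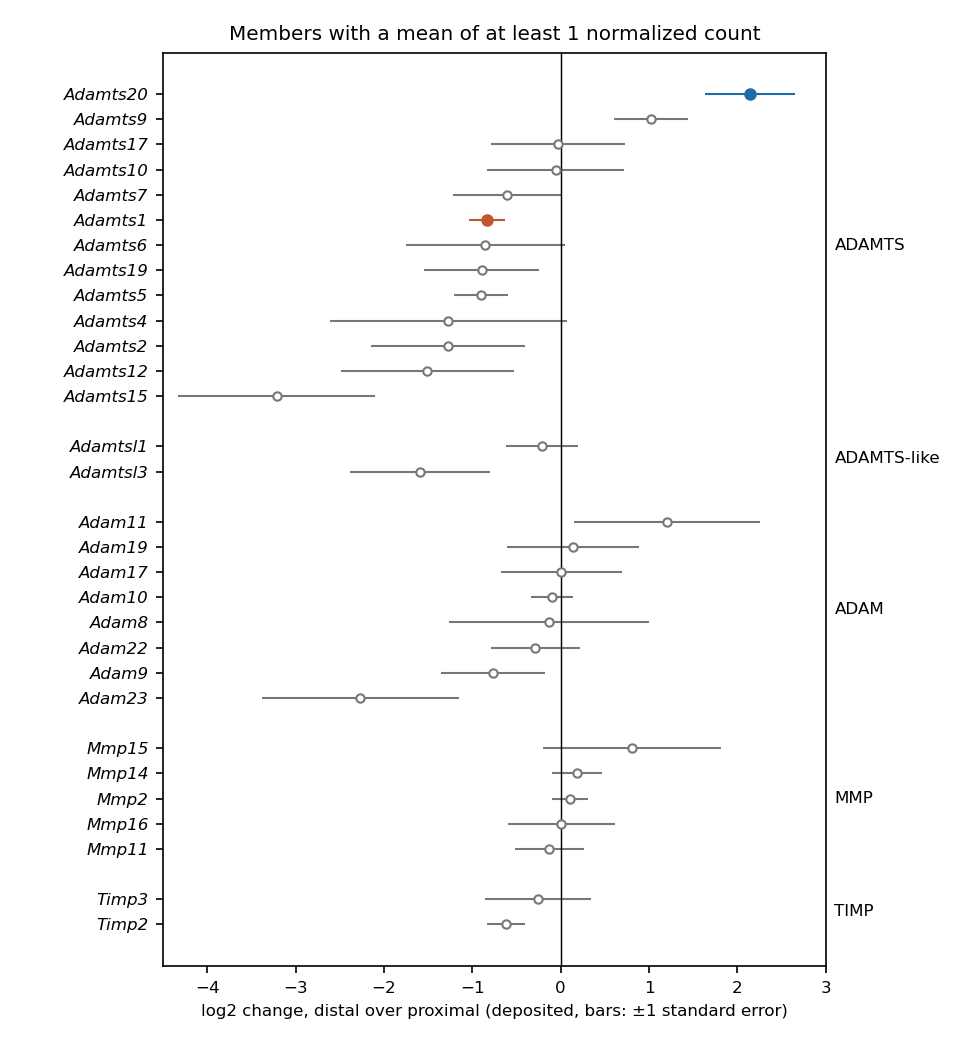
The 30 protease and inhibitor genes with a mean of at least 1 normalized count, by family. The horizontal axis is the log2 fold change of distal over proximal from the authors' deposited table, points are the fitted values, bars reach 1 standard error to each side, filled blue or orange points have an adjusted p under 0.05 and open points do not. Adamts20 at 2.15 and Adamts1 at -0.83 are the filled points, and 13 of the 15 ADAMTS and ADAMTS-like points lie left of 0.

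The ADAMTS genes that cut versican and aggrecan gave 5 of the 8 genes with an unadjusted p under 0.05. These were 5 of 7 in the table (71.4%, beside 6.07% of all genes), and 2 of them passed the test. The grouping was made with earlier results of these data known, so this share is a description. A mean of at least 1 was reached by 6 of these 7 genes, beside 30 of all 57 and 69.0% of all genes. Adamts20 (chromosome 15, from 94270163 to 94465418 on the reverse strand in GRCm38) encodes the protease altered in the belted mouse, whose white belt reflects lost melanoblasts, and it acts with Adamts9 in palate and web tissue. In normalized counts its 5 distal regions held 7.21, 18.6, 10.7, 9.80 and 9.13, and its 5 proximal regions 1.24, 1.36, 4.60, 3.19 and 2.66. Every distal region lay above every proximal one, and the share of all genes separated in this way was not computed. These values rest on 33 distal and 24 proximal counts, a depth-corrected ratio of 4.53 with an exact 95% interval from 2.60 to 8.02 that covers counting error only. In the authors' deposited table the log2 fold change was 2.15 with a standard error of 0.51 (4.43-fold, DESeq2 adjusted p = 0.00477). Leaving out each region in turn gave log2 fold changes from 1.84 to 2.49.

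Adamts9 (chromosome 6, from 92772699 to 92943492 on the reverse strand) encodes a large conserved ADAMTS related to the gonad-shaping protease of worms. Its distal regions held 12, 21.5, 26.8, 17.6 and 15.2 normalized counts and its proximal regions 6.62, 10.9, 17.9, 3.19 and 6.66. The sides overlapped, because 1 proximal region at 17.9 exceeded 3 distal ones. From 54 distal and 90 proximal counts the depth-corrected ratio was 1.98, with an exact 95% interval from 1.38 to 2.80 for counting error. The log2 fold change in the authors' deposited table was 1.03 with a standard error of 0.42 and did not pass the test (DESeq2 adjusted p = 0.504). Leaving out each region in turn gave values from 0.82, without the proximal region with the size factor 1.57, to 1.42, without the one with 1.96. The unadjusted Wald p of these refits ran from 0.00171 to 0.0593. They kept the spread fitted over all regions and did not estimate it again.

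Adamts1 (chromosome 16, from 85793827 to 85803113 on the reverse strand) encodes a versican-cutting protease known from ovulation and from heart valve and vessel development. Its mean of 62.3 was the highest of the 57, too high for whole counts to be recovered per region. The side means computed from the deposited columns were 44.9 normalized counts in distal and 79.8 in proximal, or about 131 and 771 counts. The log2 fold change in the authors' deposited table was -0.83 with a standard error of 0.21, a level 1.78-fold higher in proximal (DESeq2 adjusted p = 0.00930). On the 9 genes of the set with a mean of at least 4 and whole counts, such computed counts were off by up to 6.16% in distal and 5.72% in proximal.

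Adamts5, a major aggrecanase of cartilage, is the neighbour of Adamts1 on chromosome 16, with 53060 bases between them and no other coding gene there. Its side means were 18.3 normalized counts in distal and 34.3 in proximal. The log2 fold change of -0.90 in the authors' deposited table had a standard error of 0.30 and a DESeq2 adjusted p of 0.191. The 95% intervals of the pair, -1.24 to -0.43 for Adamts1 and -1.50 to -0.31 for Adamts5, overlapped, the former lying inside the latter.

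Adamts15 (chromosome 9, from 30899155 to 30922452) encodes a versican-cutting protease studied in muscle. A single count was found in the distal regions, worth 1.96 normalized counts in 1 of them, and 44 counts in the proximal regions, at 2.48, 3.62, 10.2, 5.11 and 1.33. The sides overlapped at the lowest proximal value. Its log2 fold change of -3.22 had the lowest value of the ADAMTS genes, with a standard error of 1.12 (DESeq2 adjusted p = 0.234 in the authors' deposited table). The proximal-to-distal ratio was 13.3 with an exact 95% interval from 2.27 to 539, so that its size is hardly bounded from above. Adamts4, the other early described aggrecanase, had 2 distal and 16 proximal counts, and Adamts8 had 0 and 6.

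**Figure D2:**
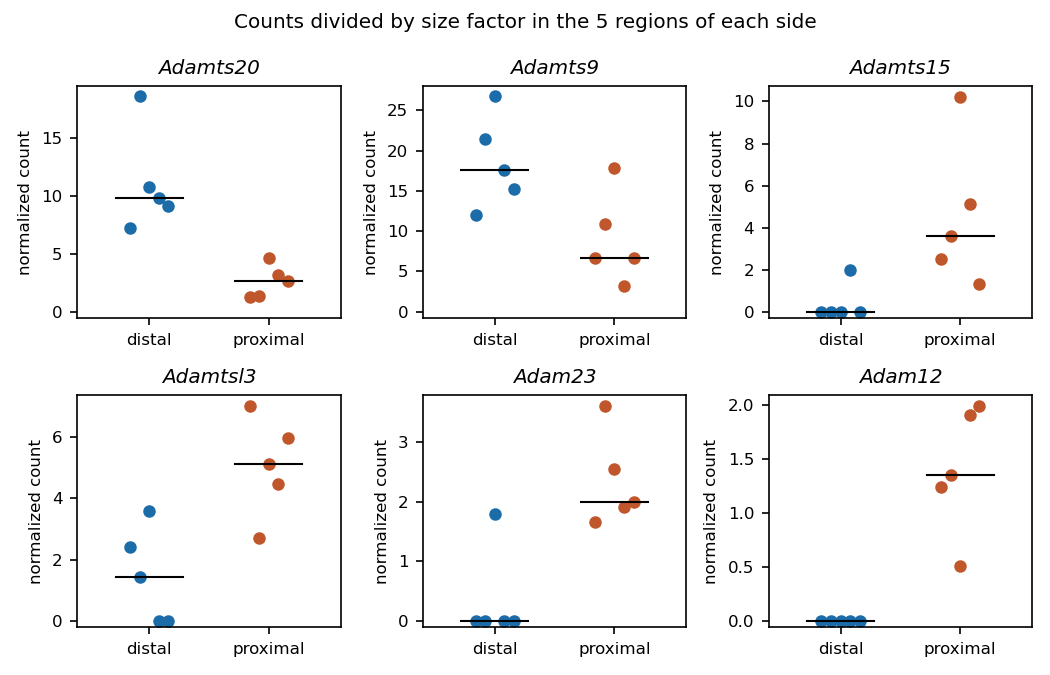
Normalized counts (whole counts divided by the size factor of the region) of 6 genes in the 5 distal (blue) and 5 proximal (orange) regions. Each point is a region and the line is the median. The distal Adamts20 points, from 7.21 to 18.6, lie above all proximal points, whereas Adamts9 overlaps and Adam12 has no distal count.

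The bases before the start of 3 genes are shown because Adamts20 and Adamts1 passed the test in opposite directions and Adamts9 was the other gene with an unadjusted p under 0.05 and more in distal. They are the 250 bases before the RefSeq start in GRCm38.p6, read 5′ to 3′ on the gene's strand, at chr15:94404351-94404600, chr6:92943535-92943784 and chr16:85803114-85803363, each on the reverse strand. Capitals mark matches to 7 short motifs.
Adamts20: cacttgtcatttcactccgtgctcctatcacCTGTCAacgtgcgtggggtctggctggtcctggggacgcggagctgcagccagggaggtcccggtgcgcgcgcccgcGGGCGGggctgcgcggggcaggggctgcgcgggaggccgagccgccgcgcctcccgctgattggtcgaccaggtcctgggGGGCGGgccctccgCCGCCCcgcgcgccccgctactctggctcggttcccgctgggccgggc
Adamts9: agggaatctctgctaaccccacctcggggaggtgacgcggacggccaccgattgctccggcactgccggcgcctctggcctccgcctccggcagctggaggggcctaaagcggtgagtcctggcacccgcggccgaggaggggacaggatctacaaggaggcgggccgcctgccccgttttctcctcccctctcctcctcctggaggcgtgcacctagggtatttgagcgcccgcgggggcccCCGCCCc
Adamts1: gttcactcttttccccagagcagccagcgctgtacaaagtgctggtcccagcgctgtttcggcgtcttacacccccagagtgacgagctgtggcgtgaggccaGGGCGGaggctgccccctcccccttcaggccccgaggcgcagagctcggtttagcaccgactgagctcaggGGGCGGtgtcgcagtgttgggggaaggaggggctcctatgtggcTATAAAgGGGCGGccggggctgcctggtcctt
The Adamts20 window lies inside the longer GENCODE gene, so it precedes an internal start of that annotation. The motifs searched on both strands were the GC box GGGCGG, the TATA box TATAAA, the AP-1 site TGANTCA, the TCF/LEF core CTTTGA, the ETS core CCGGAA, the TALE core TGACAG and the HOXD13 core CAATAAA. No match overlapped another in these windows. The GC box was matched 3 times before Adamts20, 1 time before Adamts9 and 3 times before Adamts1. It occurred in 32.7% of the 32851 windows of all genes and in 20 of the 39 windows of the protease and inhibitor genes (51.3%).

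Only the Adamts1 window held the TATA box, at position -32 from the start, among 12.4% of all windows with that motif. The TALE core was matched only before Adamts20, on the opposite strand at position -219, and 15.9% of all windows hold it. None of the 3 windows held the AP-1 site (6.75% of all windows), the TCF/LEF core (13.8%), the ETS core (12%) or the HOXD13 core (4.20%). These letters are a description of the windows, with no measurement of binding or activity. Windows were found for 35 of the 57 genes, with a median GC content of 62% over their 39 windows beside 52.4% over all windows.

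None of the procollagen N-propeptidases passed the test, and only Adamts2 had counts enough to describe. Adamts2 (chromosome 11) removes the amino-terminal propeptide of fibrillar procollagens and is lost in a skin fragility disorder. It had 4 distal counts, at 0 to 3.04 normalized counts per region, and 32 proximal counts, at 2.55 to 4.52. Its log2 fold change was -1.28 with a standard error of 0.87 (DESeq2 adjusted p = 0.991 in the authors' deposited table), and the sides overlapped. Adamts3 had 1 count on each side and Adamts14 a single count in all.

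Of the 8 other ADAMTS genes none passed the test, and all 6 with a mean of at least 1 had a log2 fold change below 0. Adamts12, which can cut a cartilage matrix protein, had 3 distal counts in 2 regions and 28 proximal counts in all 5 regions. Its highest distal value, 3.04 normalized counts, came from 1 count in the shallowest region, and its proximal values ran from 1.81 to 5.11. The log2 fold change was -1.51 with a standard error of 0.98 (DESeq2 adjusted p = 0.991 in the authors' deposited table). Adamts19, a gene known from heart valve disease, had 9 distal and 54 proximal counts, and a log2 fold change of -0.90 with a standard error of 0.65 in the authors' deposited table.

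Adamts6 and Adamts10 form a pair of related proteases that act on fibrillin microfibrils. Adamts6 had 6 distal and 35 proximal counts and Adamts10 had 8 and 27. Per the authors' deposited table they stood at -0.85 and -0.06 on the log2 scale, with standard errors of 0.90 and 0.77. Adamts7 had 10 distal and 49 proximal counts, and Adamts17, altered in a short-stature disorder with lens defects, had 9 and 32. The pairs of counts for Adamts10 and Adamts17 lie near the ratio that depth alone gives, 1 distal to 3.30 proximal. Adamts13, the protease of von Willebrand factor, had a single count, and its transcript end has near-identical copies elsewhere in the annotation, so that count is uncertain.

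The ADAMTS-like proteins share the ancillary domains of ADAMTS but have no protease domain. Adamtsl3 (chromosome 7) had 5 distal counts, at 2.40, 1.43, 3.58, 0 and 0 normalized counts, and 49 proximal counts, at 7.03, 2.71, 5.11, 4.47 and 5.99. Only 1 distal value exceeded the lowest proximal value. Its log2 fold change of -1.59 had a standard error of 0.79 and did not pass the test (DESeq2 adjusted p = 0.866 in the authors' deposited table). Leaving out each region in turn, with the spread kept as fitted over all regions, gave values from -2.03 to -1.31. The unadjusted Wald p of these refits ran from 0.0288 to 0.102.

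Adamtsl1 (chromosome 4) encodes punctin, a matrix protein, and is spread over a long gene. Its distal regions held 14.4, 2.86, 12.5, 13.7 and 3.04 normalized counts and its proximal regions 12.4, 13.1, 11.8, 12.1 and 6.66. At the proximal level were 3 distal regions, and the other 2 lay below every proximal one. Its log2 fold change of -0.22 had a standard error of 0.41 in the authors' deposited table, and it became 0.054 without the distal region with the size factor 0.698. Adamtsl4, whose loss displaces the lens, had 0 distal and 6 proximal counts, and Adamtsl5 had 0 and 2.

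None of the 18 ADAM genes passed the test. Adam10 (chromosome 9), the main sheddase of Notch receptors and cadherins, had side means of 24.9 normalized counts in distal and 26.7 in proximal. Its log2 fold change was -0.10 in the authors' deposited table, with a 95% interval from -0.56 to 0.37. Adam17, which releases growth factor and cytokine precursors, had 15 distal and 52 proximal counts and a log2 fold change of 0.01 with a standard error of 0.68 in the authors' deposited table. Its regions spread widely on both sides, from 0 to 13.7 normalized counts in distal and from 1.33 to 9.95 in proximal.

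Adam12 (chromosome 7), first described in fusing myoblasts and also made by mesenchyme, had no count in any distal region and 13 counts in the proximal regions. The proximal values were 1.24, 1.36, 0.511, 1.91 and 2.00 normalized counts, so that the sides did not overlap. The exact 95% interval of the proximal-to-distal ratio starts at 0.925, so equal levels are allowed by counting error at this depth. A fitted log2 fold change of -2.07 had a standard error of 1.29 and a DESeq2 adjusted p of 0.991, per the authors' deposited table. Among the 51 genes with whole counts, the sides did not overlap for Adamts20, Adam12 and Mmp17. For Adam12 and Mmp17 this means only that no count fell on the shallower distal side. The share of all genes without overlap was not computed, and the 0.977% called is by another rule, which neither of these genes passed.

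Adam23, Adam22 and Adam11 lack a working catalytic site and bind secreted LGI proteins at synapses. Adam23 had 1 distal count, worth 1.79 normalized counts, and 23 proximal counts at 1.65, 3.62, 2.56, 1.91 and 2.00. The 1 distal region with a count lay above the lowest proximal region. A fitted log2 fold change of -2.27 had a standard error of 1.11 and a DESeq2 adjusted p of 0.853, per the authors' deposited table. Adam22 had 15 distal and 61 proximal counts with a log2 fold change of -0.29 in the authors' deposited table, and Adam11 had 5 and 7.

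Adam9 (chromosome 8), a widely made sheddase, had 10 distal and 55 proximal counts. Its distal values ran from 0 to 4.81 normalized counts and its proximal values from 4.14 to 6.79, so that 2 distal regions reached the proximal range. The log2 fold change of -0.77 had a standard error of 0.59 in the authors' deposited table. Adam19, needed for heart valve formation, had 9 distal and 28 proximal counts, Adam8 had 4 and 14, Adam15 had 2 and 7, and Adam33 had 1 and 8. Adam28 and the 6 ADAM genes best known from testis and sperm had means under 1, with 0 to 2 distal and 0 to 8 proximal counts each.

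**Figure D3:**
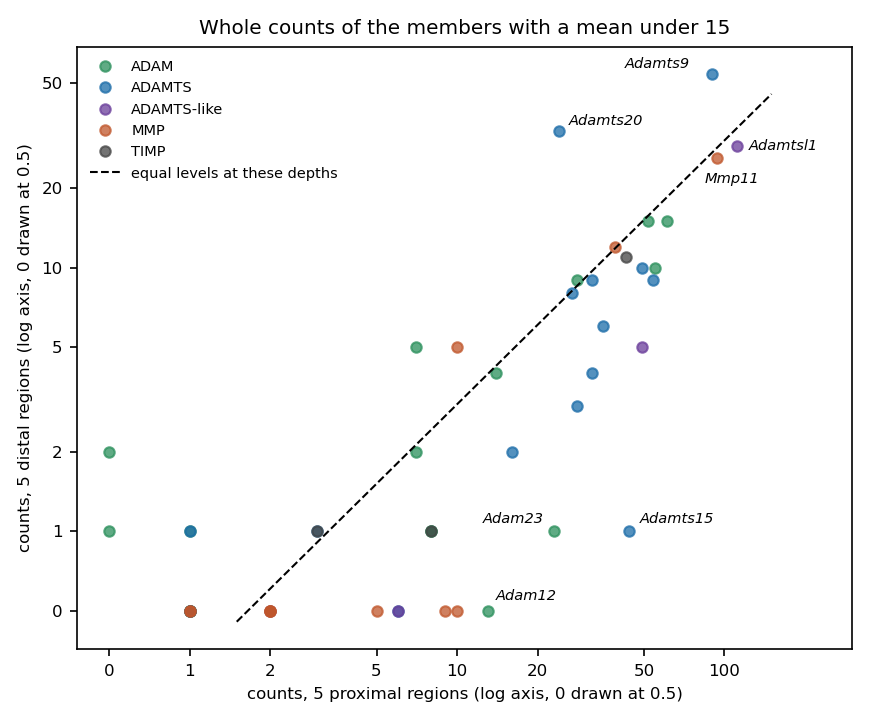
Whole counts summed over the 5 distal regions (vertical, log axis) against the 5 proximal regions (horizontal, log axis) for the 51 genes with a mean under 15, coloured by family, with 0 drawn at 0.5. The dashed line is the ratio expected for equal levels given the summed depths, 1 to 3.30, and Adamts20 (33 against 24) and Adamts9 (54 against 90) lie farthest above it among genes with at least 20 counts on both sides.

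None of the 13 MMP genes passed the test, and none had an unadjusted p under 0.05. Mmp2 (chromosome 8) and Mmp14 (chromosome 14) work together, because the membrane-bound product of Mmp14 activates the Mmp2 precursor with the help of Timp2. Mmp2 had side means of 47.0 normalized counts in distal and 43.7 in proximal, and Mmp14 19.6 and 17.2. In the authors' deposited table the log2 fold change was 0.11 for Mmp2, with a 95% interval from -0.30 to 0.51, and 0.18 for Mmp14, with an interval from -0.37 to 0.74. Both intervals held 0, and neither excludes a small difference.

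Mmp11, a stromelysin of stromal cells that is activated inside the cell, had 26 distal and 94 proximal counts. Its distal regions held 6.01, 8.59, 8.95, 9.80 and 15.2 normalized counts and its proximal regions 7.03, 9.95, 10.2, 10.8 and 12. The proximal regions lay inside the distal range, and the log2 fold change was -0.13 with a standard error of 0.39 in the authors' deposited table. Mmp16 and Mmp15, further membrane-type enzymes, had 12 and 5 distal counts and 39 and 10 proximal counts. Mmp17, which is held in the membrane by a lipid anchor, had 0 distal and 10 proximal counts, and its log2 fold change of -1.68 had a standard error of 1.44 in the authors' deposited table.

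The collagenases and the other gelatinase were near the limit of detection. Mmp9, a gelatinase of growth plate and leukocytes, had 0 distal and 5 proximal counts, Mmp8 had 0 and 2, and Mmp13 had a single count. Mmp23 had 0 distal and 9 proximal counts, and Mmp12, Mmp19 and Mmp27 had 0 and 1 or 2. For a gene with no distal count, a mean of up to 1.02 normalized counts in distal is allowed. Mmp13, Mmp12, Mmp8 and Mmp27 lie together on chromosome 9, and that cluster gave 6 counts in all.

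None of the 4 TIMP genes passed the test. Timp2 (chromosome 11), the inhibitor that also takes part in Mmp2 activation, had side means of 39.3 normalized counts in distal and 60.3 in proximal. Its log2 fold change of -0.62 had a standard error of 0.22 and a DESeq2 adjusted p of 0.247, per the authors' deposited table. The 95% interval ran from -1.04 to -0.19 and that of Mmp2 from -0.30 to 0.51, so the intervals of inhibitor and target overlapped, and their difference was not tested. Timp3, which is bound to the matrix and also blocks ADAM17 and aggrecanases, had 11 distal and 43 proximal counts.

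The distal Timp3 values ran from 0 to 6.01 normalized counts and the proximal values from 2.55 to 5.38, and its log2 fold change was -0.26 with a standard error of 0.60 in the authors' deposited table. Timp1, a secreted inhibitor induced in many tissues under repair, had 1 distal and 8 proximal counts. Timp4, known mainly from heart and fat, had 1 and 3. Neither count can show a difference: the exact 95% interval of the distal-to-proximal ratio ran from 0.00929 to 3.07 for Timp1 and from 0.0209 to 13.7 for Timp4.

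Of the 20 genes with whole counts and at least 20 of them in proximal, 6 were highest in the region with the size factor 1.96: Adamts6, Adamts9, Adamts15, Adamts17, Adamts19 and Adamts20. The region with the factor 2.21 was highest for 7: Adam9, Adam17, Adam22, Adam23, Adamts2, Adamtsl1 and Mmp16. The other 3 regions were highest for 4, 2 and 1. Of the same 20 genes, 10 are ADAMTS genes, and Adamts2, Adamts7, Adamts10 and Adamts12 peaked outside the region with the factor 1.96. This is a description noticed after the values were seen, and no evenness between regions was tested.

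Genes that supply, escort or receive these proteases were listed by function, and 66 of the 73 listed were in the table. Of these, 4 passed the test (6.06%, beside 0.977% of all genes), all higher in proximal (0.582% of all genes). None was higher in distal, where Pcsk6 alone had an unadjusted p under 0.05 (2.56% of all genes). In proximal 13 had an unadjusted p under 0.05, the 4 included (3.51% of all genes). The 4 were the collagen chains Col1a1, Col1a2 and Col3a1, whose propeptides are removed by Adamts2 and its relatives, and the microfibril protein Fbn2. In the authors' deposited table their log2 fold changes were -1.19 for Col1a1, -0.59 for Col1a2, -1.62 for Col3a1 and -0.84 for Fbn2, and the DESeq2 adjusted p was 4.54e-12, 0.0301, 0.00820 and 8.91e-05.

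Versican itself (Vcan), the substrate shared by Adamts20, Adamts9, Adamts1, Adamts5 and Adamts15, had a mean of 171 normalized counts and a log2 fold change of -0.05 with a standard error of 0.21 in the authors' deposited table. Aggrecan (Acan) had 7 distal and 69 proximal counts, and its log2 fold change was -1.57 with a standard error of 0.74 (DESeq2 adjusted p = 0.790 in the authors' deposited table). Biglycan (Bgn) came nearest to the threshold among the proteoglycans, at -1.99 with a standard error of 0.58 (DESeq2 adjusted p = 0.0648 in the authors' deposited table). Bmp1, the procollagen C-propeptidase, stood at 0.21 and Col2a1 at 0.57 with a standard error of 0.48 in the authors' deposited table.

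Reck, a membrane-anchored MMP inhibitor, had a log2 fold change of 0.00 with a standard error of 0.41 in the authors' deposited table. Furin, which removes the propeptide of many ADAMTS and membrane-type enzymes, stood at -0.47 and its relative Pcsk6 at 0.71, at DESeq2 adjusted p-values of 0.772 and 0.501 per the authors' deposited table. Tspan5, a tetraspanin that escorts Adam10, had 8 distal and 85 proximal counts and a log2 fold change of -1.71 (DESeq2 adjusted p = 0.275 in the authors' deposited table). Another escort, Tspan15, had 6 distal and 6 proximal counts and stood at 1.75 with a standard error of 1.08. Of the 5 escorts of Adam10 and Adam17 with a mean of at least 1, 3 stood above 0 and 2 below, Tspan5 included. None of them passed the test. None of the 16 shed substrates in the table passed the test. Of the Notch pathway, Notch2 stood at 0.16, Notch3 at 0.03 and Jag1 at -0.87 with a standard error of 0.46 in the authors' deposited table. Dll1, with 1 distal and 27 proximal counts, stood at -2.52 with a standard error of 1.10 (DESeq2 adjusted p = 0.620). Notch1 had 1 count on each side.

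**Figure D4:**
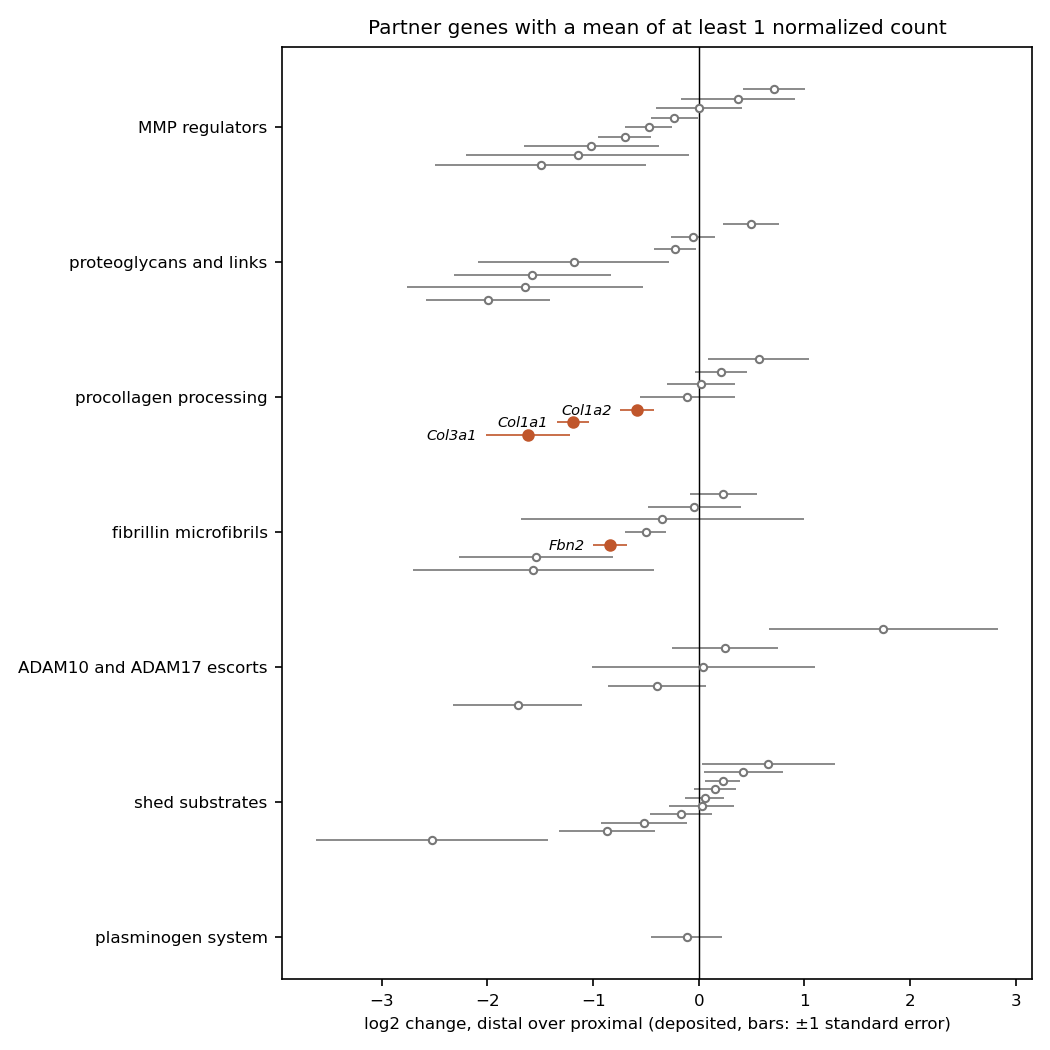
Substrates, regulators and escorts of the proteases with a mean of at least 1 normalized count, by list. The horizontal axis is the log2 fold change of distal over proximal from the authors' deposited table, bars reach 1 standard error to each side, and filled orange points have an adjusted p under 0.05. The filled points are Col1a1, Col1a2, Col3a1 and Fbn2, all left of 0.

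All 10 mesenchyme markers listed were in the table, with Prrx1 at a mean of 159 normalized counts, so the labelled cell type had its markers. Of these, 3 passed the test: Msx1 was higher in distal (log2 fold change 1.12) and Pdgfra and Tbx5 were higher in proximal (-0.86 and -1.41 per the authors' deposited table). Of the 6 chondrocyte markers in the table Sox9 alone passed, higher in distal at 0.69 per the authors' deposited table. The others lay on both sides of 0. Col2a1 and Col9a1 stood at 0.57 and 0.14, and Acan, Hapln1 and Col11a1 at -1.57, -1.18 and -0.18. The part of these differences in the protease values was not tested. Muscle markers moved with the proximal side: 4 of 10 passed the test (Actc1, Myog, Myl1 and Tnnt1), all higher in proximal. Over the 9 muscle markers with whole counts, the sum ran from 0 to 8.59 normalized counts in distal regions and from 26.2 to 58.8 in proximal regions. Pax3, Pax7, Myf5 and Des had 0 distal counts beside 19, 2, 27 and 9 proximal counts, and none of them passed the test. These values stand beside each gene above with more in proximal, Adamts15 and Adam12 included, and their part in those values was not tested.

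Beside the distal value of Adamts20, Tfap2a, listed here among the surface ectoderm markers, had 30 distal and 22 proximal counts. Tfap2a passed the test (log2 fold change 2.19, DESeq2 adjusted p = 0.00391 in the authors' deposited table). The 5 other ectoderm markers in the table summed to between 0 and 3.04 normalized counts in distal regions. In proximal regions they summed to between 0.638 and 2.00. Epcam had 2 distal and 4 proximal counts, and Grhl3 had 1 and 2. Krt14, Cdh1 and Trp63 had 0 distal counts beside only 1, 1 and 3 proximal counts. The 6 neural crest and melanoblast markers in the table, the lineage affected in belted mice, summed to between 3.61 and 21.3 in distal and between 9.57 and 12.3 in proximal, and none passed the test. Macrophage markers summed to between 0 and 9.13 in distal and between 1.91 and 7.45 in proximal, and 5 endothelial markers to between 0 and 7.16 and between 0 and 2.71. The part of these cell types in the protease values was not tested.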

How the data were processed

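The deposited file holds 1 line per protein-coding gene of the authors' distal-against-proximal comparison and has the columns of a DESeq2 output per the file headers. The mean is a deposited signal in normalized counts. The log2 fold change with its standard error, the score (log2 fold change over its standard error), the p-value and the adjusted p were also computed by the authors, and the calls are theirs. Build names GRCm38 and mm10 come from the submitters' processing notes, and the aligner and counting tool are not given in the sources used here. Gene positions are from the GENCODE annotation of GRCm38, and promoter windows from RefSeq.

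Size factors of the 10 regions were read from the repeated steps of the lowest means. Whole counts were accepted where 1 set alone gave the deposited mean, log2 fold change and standard error (51 of 51 genes of the set with a mean under 15, log2 fold change met to within 6.09e-10, next best set off by at least 9.40e-08). On data simulated with the same fitting model, 113 of 113 genes were recovered exactly. The simulated means stayed below those of Mmp11, Adamtsl1 and Adamts9, so recovery at the depth of these genes was not simulated. Which regions are distal follows from the sign of the authors' contrast. For the 6 deeper genes, side means were computed from the mean and the log2 fold change. Intervals of a log2 fold change are the value plus or minus the normal 95% range of its standard error, and count ratios have exact Clopper-Pearson 95% intervals.

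The members and lists were chosen with earlier results of these data known. Named are the members with an adjusted p under 0.05, the 12 others with the smallest p, every Timp, every member with a mean of at least 10, and partner genes with an adjusted p under 0.05. Further members and list genes are given by their counts, and Pcsk6, Tspan5, Dll1 and Bgn were picked after their values were seen. Alternatives were other thresholds, minimum means, an adjustment over the listed genes alone, centring on the median, and leaving out each region, refitted by a negative binomial model that met the deposited log2 fold change of 893 genes to within 7.11e-10. Refits without a region kept the size factors and the spread recovered from the deposited standard error of all regions. Python 3.11.15, numpy 2.4.6, scipy 1.17.1, pandas 2.3.3, matplotlib 3.10.9 and BLAST 2.17.0 were used.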

Additional observations from a re-analysis of the deposited data

Results flagged for a closer look

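Adamtsl1 had 1 proximal region far from the other 4. Its lowest proximal region held 6.66 normalized counts and the nearest other region 11.8, a gap of 0.790 of the whole range of that side (the limit for 5 samples is 0.71). This was 1 of 35 groups of 5 regions looked at, those of every gene of the set with whole counts and at least 10 of them on that side, and chance alone gives about 1 in 20.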

How the results depend on the processing

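Adamts20 and Adamts1 were called at an adjusted p under 0.01 and under 0.1, after adjustment over the table's rows alone, after centring on the median of all genes, and where a mean of at least 1 was required, a setting chosen after seeing the data. Where a mean of at least 10 was required, which leaves out Adamts20, 1 member was called and 0 were higher in distal. With a log2 fold change of at least 1 required, which leaves out Adamts1, 1 member was called, 0 were higher in proximal, and 2 partner genes were called. The share of all genes called was 0.64% at an adjusted p under 0.01 and 3.97% with the minimum mean of 10. The members' median log2 fold change was -0.06 over all 57, -0.24 with a mean of at least 1, -0.16 with a mean of at least 10 and -0.12 after centring (all genes: 0.07, -0.03, 0.00 and 0). Under row adjustment, centring and a mean of at least 10, 62 values could be had for the 25 named genes. All kept the direction and the side of the threshold. Only centring alters the log2 fold change, by 0.07 for every gene, so the other 2 settings could not reverse a direction. At an adjusted p under 0.01 Col1a2 was lost among the partners. Bgn was called in addition to the 4 partner genes under 0.1, after centring and with a mean of at least 1. Leaving out each region, also chosen after seeing the data, gave 70 fits over 7 genes. Adamts20 ran from 1.84 to 2.49, and Adamtsl1 from -0.47 to 0.054, the 1 reversed value, without the distal region with the size factor 0.698. No paired analysis was possible because nothing in the labels or the table ties a distal to a proximal region. Depth limited the distal side: 31 members had 3 distal counts or fewer.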
